A study of Mus musculus with 12 samples.

Results

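The sarcomere and Z-disc genes described here are 38 genes of the contractile unit of striated muscle, taken by symbol from a table of 25171 loci measured in 12 mouse hearts. Each symbol matched exactly 1 row, and all 38 had an Ensembl identifier found in the mouse annotation. The hearts came from mice with a loxP-stop-loxP cassette in the Rosa26 site, holding the human NOTCH2NLC gene with 98 GGC repeats. RNA from heart tissue was sequenced in 3 hearts for each of 4 groups. EIIa-tg hearts (titled E2a-transgenic) came from crosses of these mice with EIIa-Cre mice, whose Cre acts in many tissues, and EIIa-ctl hearts from littermates without that Cre, all at postnatal day 30. Myh6-tg and Myh6-ctl hearts were both taken at postnatal day 90 from mice labelled as carrying the same cassette together with Myh6-creERT2, a tamoxifen-inducible Cre that the alpha-myosin heavy chain promoter drives in cardiomyocytes. Myh6-tg mice had received 3 injections of tamoxifen at 75 mg/kg from day 60, and Myh6-ctl mice corn oil. The genotype labels of EIIa-tg replicates 2 and 3 are spelled differently from that of replicate 1 (e3a and e4a in place of e2a), while their titles place all 3 in 1 group. The question of the study was which cardiac transcripts differ when the repeat is expressed in all tissues or in cardiomyocytes alone, and for these genes it is whether the building blocks of the sarcomere differ together or one by one.

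The sarcomere is the contractile unit of a heart muscle cell. Thin filaments of actin, tropomyosin and troponin slide along thick filaments of myosin; the thick filaments are held together at the M-band and spanned by titin, and the thin filaments are anchored at the Z-disc, which also ties neighbouring myofibrils to the desmin network and to the cell membrane. Many sarcomere proteins exist as a cardiac form and a form typical of embryonic heart or skeletal muscle, and the balance between such forms is a usual measure of the state of heart muscle. Mutations in titin, cardiac myosin binding protein C, troponins, desmin, filamin C and other genes of this set are known causes of cardiomyopathy.

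The stretches of DNA just before the start sites of 5 members are shown here because 4 of these genes passed the test in both mouse models and the fifth, Mylk4, had the largest fold change of all members in Myh6-tg hearts. Each line gives the 250 bases before the RefSeq start of the gene, 5′ to 3′, on build GRCm38.p6, in lower case, with motifs in capitals: a CArG box (the site of serum response factor), a MEF2 site, the MCAT word CATTCC (read on either strand, so that it can appear as GGAATG) and the E-box word CAGCTG. The windows are chr1:75360042-75360291 (plus strand) for Des, chr6:29433006-29433255 (plus strand) for the later of 2 Flnc starts, chr8:45885237-45885486 (plus strand) for Pdlim3, chr9:110763428-110763677 (plus strand) for Myl3 and chr13:32783965-32784214 (minus strand) for Mylk4.
Des: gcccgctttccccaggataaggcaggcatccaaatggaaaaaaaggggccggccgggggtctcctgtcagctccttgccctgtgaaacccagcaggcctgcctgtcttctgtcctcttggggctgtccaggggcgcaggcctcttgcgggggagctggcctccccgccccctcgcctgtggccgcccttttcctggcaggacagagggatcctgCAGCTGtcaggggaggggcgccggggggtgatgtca
Flnc: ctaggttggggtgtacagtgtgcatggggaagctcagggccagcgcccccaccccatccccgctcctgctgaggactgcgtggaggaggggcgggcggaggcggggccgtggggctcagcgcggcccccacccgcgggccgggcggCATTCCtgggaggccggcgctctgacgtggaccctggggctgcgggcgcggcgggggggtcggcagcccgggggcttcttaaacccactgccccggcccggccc
Pdlim3: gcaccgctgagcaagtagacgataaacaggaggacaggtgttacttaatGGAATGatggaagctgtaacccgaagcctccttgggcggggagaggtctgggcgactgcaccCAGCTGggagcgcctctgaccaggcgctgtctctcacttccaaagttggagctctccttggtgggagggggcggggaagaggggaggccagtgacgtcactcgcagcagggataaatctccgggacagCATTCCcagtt
Myl3: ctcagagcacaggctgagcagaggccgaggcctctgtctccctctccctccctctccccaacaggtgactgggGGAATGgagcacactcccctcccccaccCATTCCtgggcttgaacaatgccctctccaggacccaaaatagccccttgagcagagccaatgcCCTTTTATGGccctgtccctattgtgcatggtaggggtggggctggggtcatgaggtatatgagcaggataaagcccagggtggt
Mylk4: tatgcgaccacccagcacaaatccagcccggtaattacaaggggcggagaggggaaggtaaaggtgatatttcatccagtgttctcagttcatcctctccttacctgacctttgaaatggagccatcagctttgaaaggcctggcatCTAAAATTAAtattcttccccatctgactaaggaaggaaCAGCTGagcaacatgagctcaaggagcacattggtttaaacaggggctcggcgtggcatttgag
Of the 38 members, 31 had an entry, with 41 start sites among them. A CArG box stood in 12.2% of the members' windows against 1.47% of 32851 windows over all genes, a MEF2 site in 12.2% against 2.92%, CATTCC on either strand in 26.8% against 12.6% and CAGCTG in 29.3% against 13%. In the 5 windows shown, Des held an E-box word, Flnc an MCAT word, Pdlim3 both words, Myl3 a CArG box and MCAT words, and Mylk4 a MEF2 site and an E-box word. A match of letters describes the sequence and is no evidence of binding. Myom2, Neb, Nexn, Tcap, Myoz1, Lmod3 and Myot were the 7 members without an entry.

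Libraries held between 38343106 and 50969834 counts, and 37 of the 38 members had at least 3 counts in every heart, the exception being Tnni1 with 2 in Myh6-ctl replicate 1. Mitochondrial transcripts took 31.8 to 38.3% of the counts in Myh6-ctl hearts and 15.5 to 18.6% in Myh6-tg hearts, so levels are given as normalised CPM, the CPM of each library after scaling by its TMM factor (0.825 to 1.30). Counts of Y-linked genes came from replicate 1 of each group and were at most 2 in the other hearts, so each group held 1 male heart under the number 1. Esr1, whose ligand-binding part is built into creERT2, had 1067 to 2023 CPM in Myh6-ctl hearts and 1.31 to 3.03 CPM in the hearts labelled Myh6-tg, although both groups carry the same genotype label. In the EIIa hearts, which have no creERT2 by their labels, it had 0.364 to 1.24 CPM, so the level of Esr1 does not bear out the label of a shared Cre in the Myh6-tg hearts. Groups are named as labelled throughout, and the part of that difference in the results below was not tested. The extraction text of the labels speaks of brain, but Myl2, Myh6 and Actc1, which define heart muscle, were at 464, 734 and 3705 normalised CPM or more in every heart.

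In EIIa-tg hearts 7 members were higher and 6 lower than in EIIa-ctl hearts (adjusted p under 0.05, edgeR's quasi-likelihood test with Benjamini-Hochberg adjustment over 14908 genes). Of all genes tested 8.65% were called higher and 8.3% lower, 17% in all, beside the 13 of 38 members. The genes that rose were Myoz1, Pdlim3, Myl1, Tnni1, Flnc, Des and Tnnt1. The genes that fell were Lmod3, Myl3, Myom1, Ldb3, Tmod1 and Tpm4. The median log2 fold change was -0.26 over the members and 0.02 over all genes. In 23 members the 3 EIIa-tg hearts did not overlap the 3 controls (8 above, 15 below), against 41.1% of all genes. In edgeR no member and no gene at all passed an adjusted p of 0.01 with a log2 fold change of at least 1, but by the same rule DESeq2 called 6 members (Pdlim3, Flnc, Des, Myoz1 and Myl1, higher, and Lmod3, lower) and 836 genes, 4.96% of the 16866 with an adjusted p. In edgeR 23 members and 5204 genes had an unadjusted p under 0.05. The count of 13 rests on single hearts, and so did the count over all genes. It was 0 without EIIa-ctl replicate 1 (0 of all genes), EIIa-ctl replicate 3 (1 of all genes) or EIIa-tg replicate 1 (0 of all genes). It was 2 without EIIa-tg replicate 3, against 0.877% of all genes, and 9 without EIIa-ctl replicate 2, against 11.7%. Without EIIa-tg replicate 2 it was 22, against 26.6% of all genes.

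In hearts labelled Myh6-tg 4 members were higher (Pdlim3, Flnc, Des and Pdlim5) and 6 lower (Mylk4, Myh7b, Tmod4, Lmod3, Tnni3 and Myl3) than in Myh6-ctl hearts. Over the 15298 genes tested 8.96% were called higher and 9.38% lower, 18.3% in all, beside the members' 10 of 38. At an adjusted p under 0.01 with a log2 fold change of at least 1, the members called were Flnc, higher, and Myh7b, Tmod4, Lmod3, Myl3 and Mylk4, lower, 6 in all against 3.97% of all genes. The median log2 fold change was 0.03 over the members and 0.03 over all genes. The groups did not overlap in 15 members (7 above, 8 below), which is near the 40.2% of all genes. Without Myh6-tg replicate 1 the count was 21 members (4 higher, 17 lower), against 26.7% of all genes. Without any other heart it was 7 to 11, against 5.01 to 11% of all genes. By the labels only Myh6-tg mice received tamoxifen, so the drug, the activity of the Cre and the repeat cannot be told apart in this comparison. In the EIIa model, whose controls lack the Cre, the Cre and the repeat cannot be told apart either. In these bulk samples fewer heart muscle cells and less RNA per cell cannot be told apart, in this and the next results.

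The members called in both models were 5, and all 5 had the same direction: Pdlim3, Flnc and Des were higher and Lmod3 and Myl3 lower. The models share no hearts. Of the 14649 genes tested in both models 933 (6.37%) were called in both, and 914 of these (98%) had the same direction. Among the members whose groups did not overlap in both models, 12 in number, all 12 also lay on the same side. Over all genes 2888 (19.7%) did not overlap in both, 2656 of them (92%) on the same side, so a shared direction was also the rule among genes at large.

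**Figure D1:**
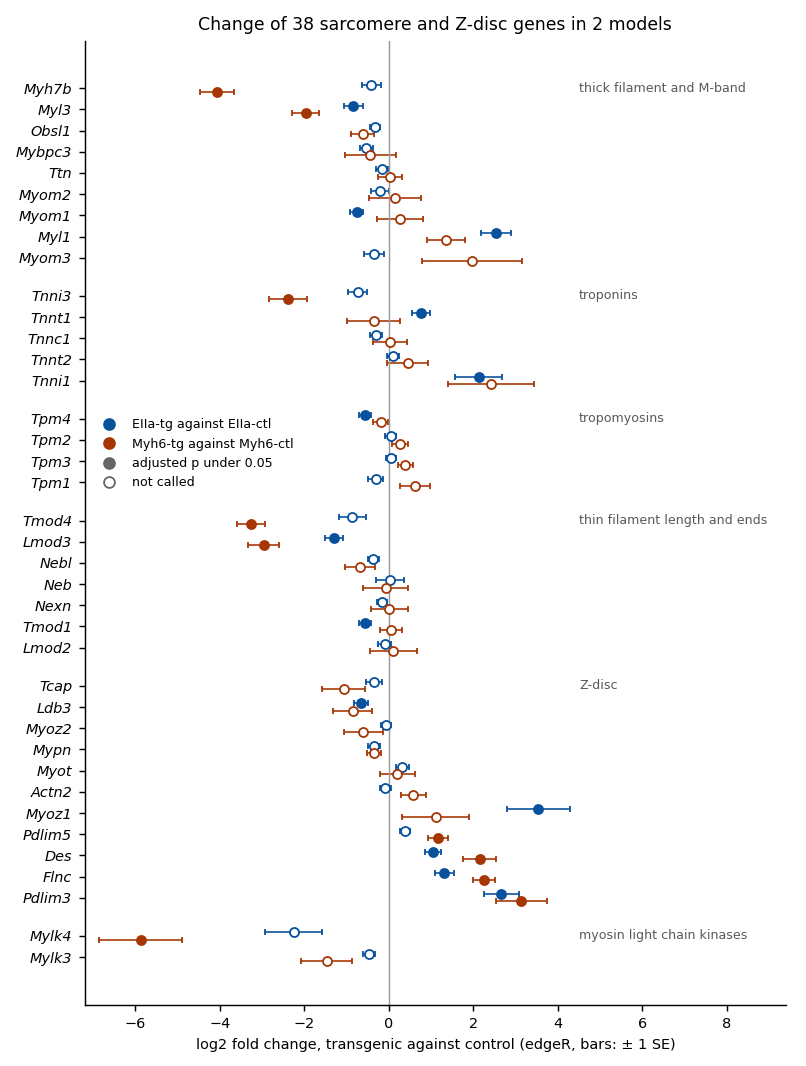
Log2 fold change of each of the 38 members (y axis, ordered by role) in EIIa-tg against EIIa-ctl hearts (blue) and in Myh6-tg against Myh6-ctl hearts (brown), with bars of 1 standard error; filled points passed an adjusted p of 0.05. Pdlim3, Flnc and Des lie right of 0 and Lmod3 and Myl3 left of 0 with filled points in both colours, and the bars are longer in the Myh6 comparison.

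The Z-disc held most of the genes that rose. Of its 11 members, 4 were called higher and 1 lower in EIIa-tg hearts, and 4 higher and 0 lower in Myh6-tg hearts. Over all genes 8.65% were called higher and 8.3% lower in EIIa-tg hearts, and 8.96% and 9.38% in Myh6-tg hearts. These shares also stand beside the counts for the other roles below, each of which holds few genes. Des (chromosome 1, 75360329 to 75368579, GRCm38) encodes desmin, the intermediate filament that links Z-discs to each other and to the membrane. It had 1653, 1558 and 1809 normalised CPM in the 3 EIIa-ctl hearts and 3358, 2632 and 4397 in the EIIa-tg hearts. In the Myh6-ctl hearts it had 1578, 3167 and 1837 and in the Myh6-tg hearts 12740, 8492 and 8087 normalised CPM. Every transgenic heart lay above every control of its model, and the Myh6-tg hearts lay above all others. The fold was 2.06 in EIIa-tg hearts (log2 1.04, SE 0.20, adjusted p = 0.0193) and 4.45 in Myh6-tg hearts (log2 2.15, SE 0.39, adjusted p = 0.0119, and 0.0541 without Myh6-ctl replicate 1). With 1 heart left out in turn, the call of Des held in 2 of 6 fits in the EIIa model and in 5 of 6 in the Myh6 model.

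Flnc (chromosome 6, 29433256 to 29461883) encodes filamin C, an actin crosslinker of the Z-disc and the sites where myofibrils meet the membrane. Its levels were 134, 153 and 149 normalised CPM in EIIa-ctl, 375, 235 and 476 in EIIa-tg, 221, 212 and 283 in Myh6-ctl and 823, 1274 and 1312 in Myh6-tg hearts. The groups were apart in both models, with folds of 2.47 (log2 1.31, SE 0.22, adjusted p = 0.0166) and 4.76 (log2 2.25, SE 0.27, adjusted p = 0.00372). With 1 heart left out in turn, the call of Flnc held in 2 of 6 fits in the EIIa model and in 6 of 6 in the Myh6 model. Pdlim3 (chromosome 8, 45885461 to 45919548), a PDZ and LIM protein that binds alpha-actinin, had 11.5, 21.5 and 10.0 normalised CPM in EIIa-ctl and 83.5, 49.2 and 140 in EIIa-tg hearts. In the Myh6 model it had 13.4, 56.8 and 33.4 in control and 139, 410 and 359 in Myh6-tg hearts, again without overlap. It was 6.31-fold higher in EIIa-tg hearts (adjusted p = 0.0166) and 8.78-fold higher in Myh6-tg hearts (adjusted p = 0.0140), the latter with an adjusted p of 0.0559 without Myh6-ctl replicate 3. With 1 heart left out in turn, the call of Pdlim3 held in 3 of 6 fits in the EIIa model and in 5 of 6 in the Myh6 model.

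Pdlim5, a relative of Pdlim3 found at the Z-disc, had 593, 762 and 572 normalised CPM in Myh6-ctl and 1694, 1413 and 1199 in Myh6-tg hearts. It was 2.24-fold higher there (adjusted p = 0.0184), but not past the threshold without Myh6-ctl replicate 1, Myh6-ctl replicate 3 or Myh6-tg replicate 2 (adjusted p = 0.0791, 0.0648 and 0.0704). In the EIIa model its levels were 511 to 566 in control and 625 to 765 in EIIa-tg hearts, with no overlap and an adjusted p of 0.0572. Myoz1 encodes calsarcin-2, a calcineurin-binding Z-disc protein of fast skeletal muscle, and its level was low throughout: 0.159, 0.599 and 0.0815 normalised CPM in EIIa-ctl and 2.49, 1.63 and 5.77 in EIIa-tg hearts. That difference passed the test (log2 3.54, SE 0.74, adjusted p = 0.0227), while 0.226, 1.86 and 1.97 in Myh6-ctl against 1.24, 4.77 and 2.78 in Myh6-tg hearts overlapped (adjusted p = 0.364).

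Ldb3, also called Cypher or ZASP, a PDZ and LIM protein that holds alpha-actinin at the Z-disc, was the Z-disc member that fell. It had 932, 773 and 878 normalised CPM in EIIa-ctl and 535, 660 and 439 in EIIa-tg hearts (log2 -0.66, SE 0.17, adjusted p = 0.0348). In the Myh6 model it had 866, 795 and 548 in control and 737, 265 and 214 in Myh6-tg hearts, where replicate 1 lay within the control range (adjusted p = 0.239). Actn2, alpha-actinin itself and the main crosslinker of the Z-disc, ranged over 1097 to 1529 normalised CPM in the control hearts of both models over 1301 to 1333 in EIIa-tg hearts and over 1454 to 2657 in Myh6-tg hearts, and was not called in either model. Myoz2, Mypn, Myot and Tcap were not called either, with log2 fold changes from -0.35 to 0.32 in EIIa-tg and from -1.07 to 0.20 in Myh6-tg hearts.

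Among the 9 members of the thick filament and the M-band, 1 was called higher and 2 lower in EIIa-tg hearts, and 0 higher and 2 lower in Myh6-tg hearts. Myl3 (chromosome 9, 110741861 to 110769798) encodes the ventricular essential light chain of myosin. Its level was 4837, 4401 and 5117 normalised CPM in EIIa-ctl and 2534, 3548 and 1948 in EIIa-tg hearts (0.559-fold, log2 -0.84, SE 0.23, adjusted p = 0.0426). In Myh6-ctl hearts it was 4043, 4619 and 2843 and in Myh6-tg hearts 1208, 1040 and 680, with every Myh6-tg heart below every other heart (0.254-fold, log2 -1.97, SE 0.33, adjusted p = 0.00945). With 1 heart left out in turn, the call of Myl3 held in 1 of 6 fits in the EIIa model and in 6 of 6 in the Myh6 model. Myl1, the essential light chain of fast skeletal and embryonic muscle, went the other way: 18.9, 43.3 and 22.4 normalised CPM in EIIa-ctl and 133, 126 and 236 in EIIa-tg hearts (5.83-fold, log2 2.54, SE 0.36, adjusted p = 0.0147, the lowest of all members in that comparison). In the Myh6 model its levels were 32.5, 130 and 76.4 in control and 190, 243 and 178 in Myh6-tg hearts, without overlap and with an adjusted p of 0.0718 (0.0227 with the replicate number as a block, log2 1.55).

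Myh7b (chromosome 2, 155611212 to 155634307), a slow-type myosin heavy chain gene that hosts the microRNA Mir499, had 18.7, 8.88 and 22.9 normalised CPM in Myh6-ctl hearts and 0.790, 1.08 and 1.12 in Myh6-tg hearts, far apart (0.0595-fold, log2 -4.07, SE 0.40, adjusted p = 0.00222). In the EIIa model the hearts overlapped, with 17.1, 11.6 and 16.9 in control and 13.4, 12.7 and 8.04 in EIIa-tg hearts (adjusted p = 0.225). The annotated gene overlaps Trpc4ap on the opposite strand, and since no source used here says whether strand was used in counting, reads of the 2 genes cannot be told apart in the shared stretch. The same holds for Myl3 and Pth1r, and for Des and the antisense gene Gm15179.

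Myom1, myomesin 1, a crosslinker of the M-band, had 819, 644 and 807 normalised CPM in EIIa-ctl and 449, 514 and 373 in EIIa-tg hearts (log2 -0.77, SE 0.16, adjusted p = 0.0227). In the Myh6 model it had 653, 473 and 548 in control hearts and 1337, 362 and 302 in Myh6-tg hearts, of which 1 lay above and 2 below all controls (adjusted p = 0.782). Mybpc3, cardiac myosin binding protein C, was below the controls in all 3 EIIa-tg hearts (1414, 1796 and 1451 against 2367, 1932 and 2435 normalised CPM) with an adjusted p of 0.0545. It was split in Myh6-tg hearts, with 3349 in replicate 1 and 798 and 626 in replicates 2 and 3. Ttn, titin, the molecular spring, was not called, with 1089 to 1283 normalised CPM in EIIa-tg against 1124 to 1438 in EIIa-ctl hearts and 918 to 1600 in Myh6-tg against 964 to 1284 in Myh6-ctl hearts. The other 3 members of this group, Myom2, Myom3 and Obsl1, were not called in either comparison.

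Troponin is the calcium switch of the thin filament and is made of 1 subunit each of type T, I and C. Of the 5 troponin genes, 2 were called higher in EIIa-tg hearts and 1 lower in Myh6-tg hearts. Tnni3 (chromosome 7, 4518305 to 4524229), the adult cardiac inhibitory subunit, had 1978, 2170 and 1387 normalised CPM in Myh6-ctl and 577, 294 and 186 in Myh6-tg hearts, all 3 below every other heart (0.191-fold, log2 -2.39, SE 0.44, adjusted p = 0.0124). Its adjusted p was 0.0504 without Myh6-ctl replicate 1 and 0.0542 without Myh6-tg replicate 2. In EIIa-tg hearts it had 1397, 2098 and 1198 against 2511, 2441 and 2874 in EIIa-ctl hearts, apart but with an adjusted p of 0.0520. The annotated gene overlaps Dnaaf3 on the same strand. Tnni1, the slow skeletal inhibitory subunit that the embryonic heart uses, was near the limit of detection in every group. It rose from 0.182, 0.313 and 0.217 to 0.888, 0.596 and 1.67 normalised CPM in EIIa-tg hearts (log2 2.13, SE 0.56, adjusted p = 0.0375). In the Myh6 model it was 0.0452, 0.466 and 0.266 in control and 3.07, 0.629 and 0.473 in Myh6-tg hearts (adjusted p = 0.136).

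Tnnt1, the slow skeletal tropomyosin-binding subunit, had 7.74, 12.7 and 11.3 normalised CPM in EIIa-ctl and 14.2, 18.2 and 21.4 in EIIa-tg hearts (log2 0.76, SE 0.21, adjusted p = 0.0456). In Myh6-tg hearts it was 24.5 in replicate 1 and 5.97 and 5.60 in the others, on both sides of the Myh6-ctl range of 7.24 to 21.2. Tnnt2, the cardiac tropomyosin-binding subunit, and Tnnc1, the calcium-binding subunit, were not called in either model. Per length, the ratio of Tnnt2 to Tnni3 in FPKM was 1.23 to 1.33 in EIIa-ctl and 1.70 to 2.99 in EIIa-tg hearts, and 1.66 to 1.87 in Myh6-ctl and 9.56 to 13.5 in Myh6-tg hearts. The ratio of Tnnc1 to Tnni3 in FPKM was 0.569 to 0.673 in EIIa-ctl and 0.674 to 1.05 in EIIa-tg hearts, which touched without overlap. In the Myh6 model it was 0.706 to 0.939 in Myh6-ctl and 4.27 to 4.89 in Myh6-tg hearts, close together in the 3 transgenic hearts. The ratio of Tnnt2 to Tnnc1 in FPKM was 1.97 to 2.16 in EIIa-ctl and 2.53 to 2.85 in EIIa-tg hearts, which did not overlap. It was 1.91 to 2.35 in Myh6-ctl and 2.11 to 3.17 in Myh6-tg hearts, which overlapped.

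Tropomyosins lie along the actin filament and gate its contact with myosin. Of the 4 genes Tpm4, a form found mainly outside the sarcomere, was called lower in EIIa-tg hearts (207, 235 and 217 against 126, 179 and 142 normalised CPM, log2 -0.56, SE 0.14, adjusted p = 0.0339), and none was called in Myh6-tg hearts by edgeR, where their unadjusted p-values were 0.0516 to 0.320. Tpm1, the main cardiac form, made up 96.3 to 98.7% of the summed FPKM of the 4 genes in the 12 hearts.

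At the ends and along the length of the thin filament, 2 of 7 members were called lower in each model and 0 higher. Of all genes 8.3% were called lower in EIIa-tg and 9.38% in Myh6-tg hearts. Lmod3 (chromosome 6, 97238534 to 97252759), leiomodin 3, which starts and lengthens actin filaments, was called lower in both models. It had 106, 79.8 and 120 normalised CPM in EIIa-ctl and 35.3, 53.4 and 35.3 in EIIa-tg hearts (0.405-fold, log2 -1.30, SE 0.21, adjusted p = 0.0166). It had 73.0, 58.3 and 52.6 in Myh6-ctl and 12.4, 6.18 and 5.02 in Myh6-tg hearts (0.128-fold, log2 -2.97, SE 0.36, adjusted p = 0.00378). In both models each transgenic heart was below each control, and the call held when any 1 heart was left out in the Myh6 model, and for 2 of the 6 hearts in the EIIa model.

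Tmod4, tropomodulin 4, a cap of the slow end of the thin filament best known from skeletal muscle, had 16.5, 12.9 and 10.6 normalised CPM in Myh6-ctl and 1.84, 0.890 and 1.44 in Myh6-tg hearts (0.104-fold, log2 -3.26, SE 0.34, adjusted p = 0.00240). In the EIIa model it was 20.6, 13.9 and 18.2 in control and 11.5, 12.5 and 4.90 in EIIa-tg hearts, without overlap and with an adjusted p of 0.0952. Tmod1, the main cardiac cap, had 325, 305 and 350 in EIIa-ctl and 186, 265 and 211 in EIIa-tg hearts (log2 -0.57, SE 0.15, adjusted p = 0.0360), and overlapped in the Myh6 model. Lmod2, Nebl, Neb and Nexn were not called, with log2 fold changes from -0.69 to 0.11 in the 2 comparisons.

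The 2 myosin light chain kinases phosphorylate the regulatory light chain of myosin. Mylk4 (chromosome 13, 32700834 to 32783954) had the largest fold change of the set: 88.6, 66.4 and 91.9 normalised CPM in Myh6-ctl hearts and 3.57, 0.152 and 0.492 in Myh6-tg hearts (0.0170-fold, log2 -5.88, SE 0.99, adjusted p = 0.00962). Without Myh6-tg replicate 1 the fold was 0.00402 (log2 -7.96), and with any 1 heart left out log2 ran from -7.96 to -5.35. In the EIIa model it was 222, 132 and 195 in control and 17.4, 85.6 and 11.2 in EIIa-tg hearts, with replicate 2 nearest to the controls (log2 -2.25, SE 0.68, adjusted p = 0.0538, and log2 -3.69 with an adjusted p of 0.000383 without EIIa-tg replicate 2). Mylk3, the cardiac kinase, lay below the controls in every transgenic heart of both models, with 272 to 358 against 381 to 470 normalised CPM in the EIIa model (adjusted p = 0.0505) and 57.3 to 281 against 344 to 400 in the Myh6 model (adjusted p = 0.129, and 0.0410 with the replicate number as a block).

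**Figure D2:**
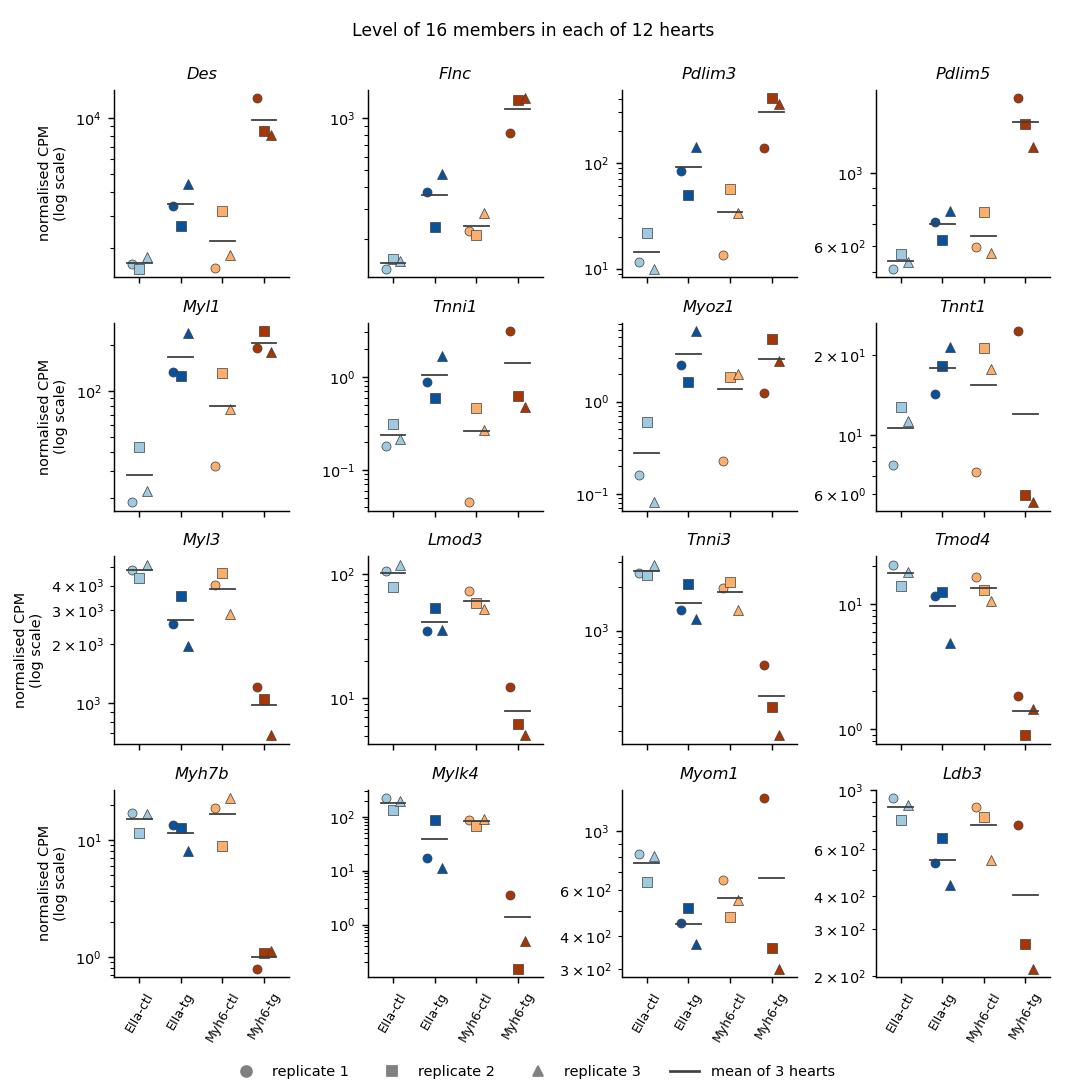
Normalised CPM (y axis, log scale) of 16 members in each of the 12 hearts, by group on the x axis; symbols stand for replicate numbers and lines for the mean of 3 hearts. Des, Flnc and Pdlim3 are above and Myl3 and Lmod3 below the controls in all transgenic hearts, while Myom1 and Ldb3 in Myh6-tg replicate 1 stand away from replicates 2 and 3.

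The hearts of a group did not agree equally well. The SD of log2 normalised CPM within a group, taken as the median over the 38 members, was 0.17 in EIIa-ctl, 0.24 in EIIa-tg and 0.24 in Myh6-ctl hearts, beside medians over 15929 genes of 0.18, 0.22 and 0.33. In Myh6-tg hearts it was 0.73 for the members and 0.32 for all genes, and 9 members had an SD over 1, as had 11.7% of all genes. The heart that stood apart was replicate 1, the male heart. There 18 of 38 members (47.4%) were more than 1 log2 unit above the mean of replicates 2 and 3, against 10.3% of all genes. More than 1 log2 unit below it were 3 members (7.89%), against 11.7% of all genes. The median difference was 0.84 for members and 0.01 for all genes. Myom3, an M-band protein, was 26.5 times as high in replicate 1 as in the mean of the others, Myom2 4.96, Mylk3 4.87, Mybpc3 4.70 and Lmod2 4.36 times. The level of Myom3 was low, with 15.5 normalised CPM in replicate 1 and 0.716 and 0.454 in replicates 2 and 3. Replicates 2 and 3 differed from each other by a median of 0.25. In the Myh6-ctl group the median member of replicate 1 was -0.06 from replicates 2 and 3 by the same measure. The difference there was over 1 log2 unit for 7 of 38 members and 2062 of 15929 genes. Replicate 1 was lower for Myoz1 (-2.86), Tnni1 (-2.15), Pdlim3 (-1.70), Myl1 (-1.62), Tnnt1 (-1.41) and Neb (-1.06), and higher for Myot (1.17).

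Relative to the mean of the Myh6-ctl hearts, the median member was 0.45 higher in Myh6-tg replicate 1, and -0.50 and -0.71 in replicates 2 and 3, on the log2 scale. Without replicate 1, 17 members were called lower in place of 6, with Mybpc3 (log2 -1.60), Nebl (-1.25), Myoz2 (-1.38), Tcap (-1.84), Ldb3 (-1.62), Lmod2 (-0.98), Nexn (-0.75), Obsl1 (-0.97), Myom1 (-0.75), Myom2 (-1.07) and Mylk3 (-2.67) added, while the 4 called higher remained Des, Flnc, Pdlim3 and Pdlim5. The 10 members called with all 6 hearts were all called without replicate 1. Ventricular heart muscle markers moved in the same direction between these hearts, with a summed level of 27507 normalised CPM in replicate 1 and 13570 and 10055 in replicates 2 and 3, and whether they account for the spread was not tested.

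Among the EIIa-tg hearts replicate 2 lay nearest to the controls. It was the EIIa-tg heart closest to the EIIa-ctl mean for 26 of 38 members (68.4%) and for 55.7% of all genes, and replicate 3 for 2 members (5.26%) and 18.4% of all genes. Its summed ventricular marker level was 49713 normalised CPM against 27776 and 25144 in replicates 1 and 3 and 58720 to 69002 in the controls.

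**Figure D3:**
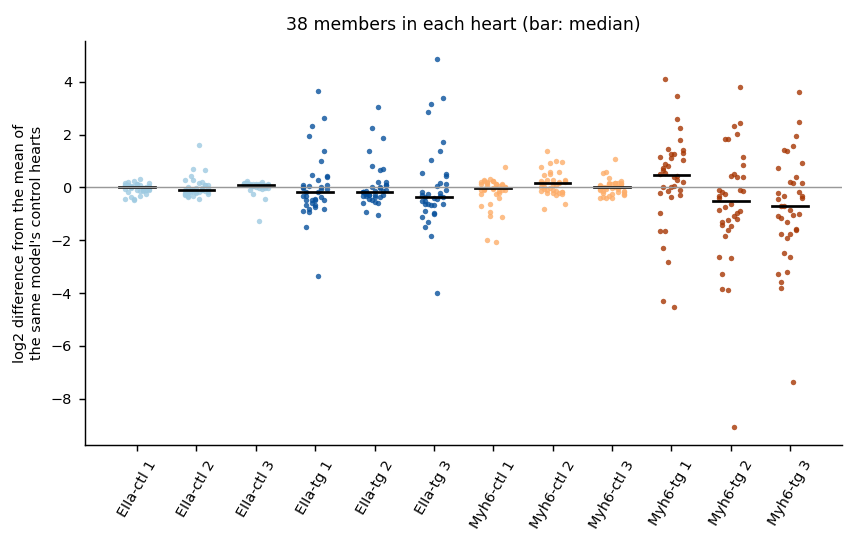
Log2 difference of each of the 38 members (points) from the mean of the control hearts of the same model (y axis) in each of the 12 hearts (x axis), with a bar at the median. The medians are 0.45, -0.50 and -0.71 in Myh6-tg replicates 1, 2 and 3, and between -0.35 and -0.16 in the EIIa-tg hearts.

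For 15 pairs of related genes the log2 ratio of counts was compared between transgenic and control hearts in both models at once, by an exact permutation test that shuffles hearts within a model (400 arrangements, two-sided, smallest possible p = 0.005, adjusted over the 15 pairs). A ratio within a heart does not depend on the scaling of the library. The ratio of Tnni1 to Tnni3 was 3.81 log2 units higher in transgenic hearts as the mean of both models, Myl1 to Myl3 3.50 higher and Pdlim3 to Pdlim5 2.15 higher, each at the smallest p (adjusted p = 0.015 in the exact permutation test). The ratio of Lmod3 to Lmod2 fell by 2.01 and that of Mylk4 to Mylk3 by 3.68 log2 units, also at the smallest p (adjusted p = 0.015 in the exact permutation test). For these 5 pairs all 3 transgenic hearts lay on 1 side of all 3 controls in each model. Myoz1 to Myoz2 (3.03 higher) and Tpm4 to Tpm1 (-0.52) had an adjusted p of 0.0321 in the exact permutation test, which rose to at most 0.0643 and 0.1 with a heart left out.

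In FPKM, which is per length, Myl1 made up 0.426, 1.10 and 0.499% of the sum of Myl1 and Myl3 in EIIa-ctl hearts and 5.76, 3.93 and 12.3% in EIIa-tg hearts. The share was 0.890, 3.00 and 3.00% in Myh6-ctl and 15.3 to 23.1% in Myh6-tg hearts. Tnni1 stayed a trace beside Tnni3, at most 0.428% of the sum of their FPKM in any heart. Mylk4 was 19.6 to 26.4% of the summed FPKM of both kinases in EIIa-ctl, 2.65 to 14.2% in EIIa-tg, 11.5 to 15.9% in Myh6-ctl and 0.172 to 0.937% in Myh6-tg hearts. Pdlim3 made up 2.28 to 4.63, 9.34 to 20.2, 2.80 to 8.88 and 9.68 to 29.1% of the Pdlim3 and Pdlim5 sum in the same order of groups.

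The other 8 pairs did not pass the test. The ratios of Tmod4 to Tmod1 (-1.84) and Myot to Mypn (0.63) had an adjusted p of 0.05 in the exact permutation test. With the replicate number as a block in the Myh6 model, where hearts were exchanged only within a number (160 arrangements, smallest p = 0.0125, chosen after seeing the data), Myot to Mypn had an adjusted p of 0.0469 in the exact permutation test and the 7 pairs above 0.0268. Tnnt1 to Tnnt2, Tpm2 to Tpm1, Tpm3 to Tpm1, Neb to Nebl, Myom2 to Myom1 and Myom3 to Myom1 had mean differences from -0.08 to 0.54 log2 units. In 4 of these a mean near 0 joined opposite signs: Tnnt1 to Tnnt2 differed by 0.67 in the EIIa model and -0.83 in the Myh6 model, Tpm2 to Tpm1 by 0.36 and -0.34, Tpm3 to Tpm1 by 0.36 and -0.18 and Myom2 to Myom1 by 0.51 and -0.22. Neb to Nebl differed by 0.37 and 0.71 and Myom3 to Myom1 by 0.42 and 0.36.

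**Figure D4:**
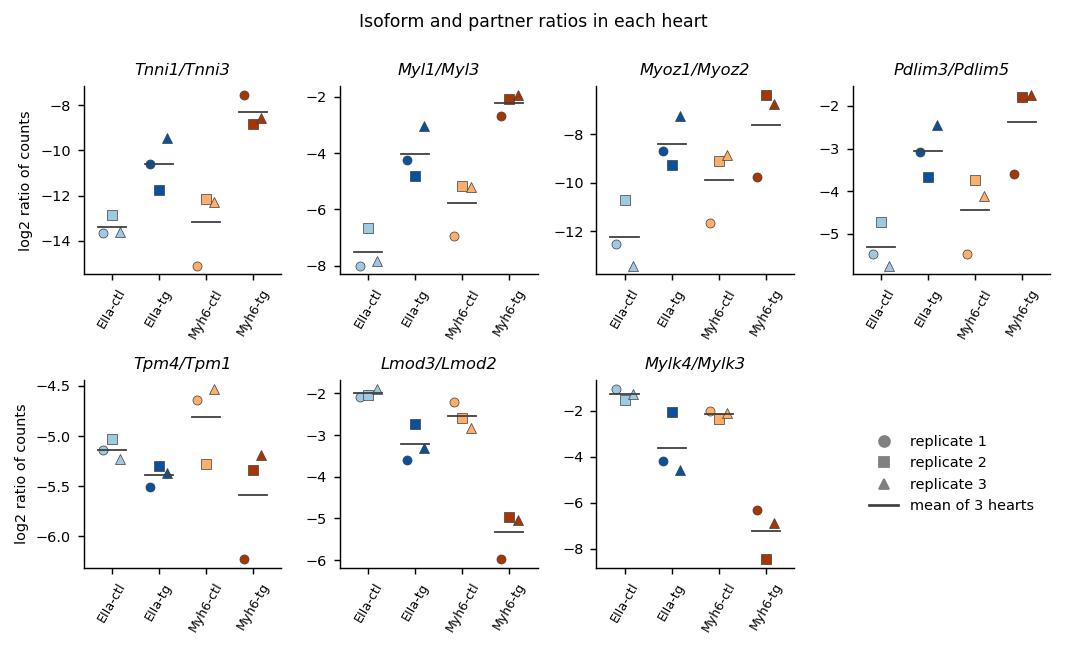
Log2 ratio of counts (y axis) for the 7 pairs with an adjusted p under 0.05, in each of the 12 hearts by group (x axis); symbols stand for replicate numbers and lines for the mean of 3 hearts. Myl1/Myl3 reaches -3.04 to -4.82 in EIIa-tg and -1.93 to -2.67 in Myh6-tg hearts, above all controls of the same model, and Mylk4/Mylk3 lies below the controls of its model in every transgenic heart.

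The change itself was compared between the models with an interaction term over all 12 hearts. For 2 members the change in Myh6-tg hearts was lower than that in EIIa-tg hearts: Myh7b (log2 difference -3.65, SE 0.47, adjusted p = 0.00311) and Tmod4 (-2.40, SE 0.49, adjusted p = 0.0204), against 3.92% of 15929 genes called. For the genes called in both models the larger fold in Myh6-tg hearts did not pass this test, with adjusted p-values of 0.0535 for Lmod3, 0.140 for Myl3, 0.173 for Flnc, 0.177 for Des and 0.791 for Pdlim3. Without Myh6-tg replicate 1 the count was 13 members (1 higher, 12 lower), against 10.6% of all genes. Age, Cre line, route of induction and injection all differ between the models and cannot be told apart.

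Between the control groups, Myh6-ctl at day 90 and EIIa-ctl at day 30, no member passed the test in edgeR (background 0.0334% of 14990 genes, 13 members and 1700 genes at an unadjusted p under 0.05). DESeq2 called 5 members there, against 2.22% of all genes. The lowest adjusted p among members was 0.102 for Mylk4, with 66.4 to 91.9 in Myh6-ctl against 132 to 222 normalised CPM in EIIa-ctl hearts. Tcap, telethonin, which caps titin at the Z-disc, had 406 to 898 against 1466 to 1605 normalised CPM there (log2 -1.22, SE 0.26, adjusted p = 0.140).

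Gene-level counts divided by FPKM give the mean transcript length that the FPKM rested on, which moves when the mix of long and short isoforms moves. This measure was added after values of the genes had been seen. For 19 of 32 members with a mean count of at least 500 it stayed within a range of 0.05 log2 units over the 12 hearts. Ldb3 (chromosome 14, 34526603 to 34588682), which has annotated transcripts of 5.12 and 4.98 kb beside others of 2.47 kb and less, was the exception that passed the test. Its implied length was 2.38, 2.37 and 2.49 kb in Myh6-ctl and 3.40, 3.44 and 3.49 kb in Myh6-tg hearts (log2 0.52, SE 0.02, adjusted p = 0.0190 by limma over 8215 genes, of which 0.122% were called at a log2 difference of at least 0.1). Here Myh6-tg replicate 1 lay beside replicates 2 and 3, unlike in the level of the same gene. In the EIIa model the Ldb3 length was 2.50, 2.41 and 2.42 kb in control and 2.91, 2.50 and 3.02 kb in EIIa-tg hearts (adjusted p = 0.738), and limma called 0% of genes there, with 120 genes and 2 members at an unadjusted p under 0.05.

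Ttn, whose isoforms set the stiffness of heart muscle, had an implied length of 80.2 to 86.2 kb in the 6 control hearts, 67.5 to 79.5 kb in EIIa-tg hearts and 73.0, 48.8 and 48.9 kb in Myh6-tg hearts. All transgenic hearts were below all controls, without passing the test (adjusted p = 0.583 and 0.582 by limma). Its FPKM was 10.1, 12.4 and 15.2 in Myh6-ctl and 23.4, 22.2 and 26.1 in Myh6-tg hearts, a difference that the normalised counts of the gene did not show. Tpm2, the beta form of tropomyosin, had 1.30 to 1.56 kb in Myh6-ctl and 1.84 to 1.97 kb in Myh6-tg hearts (adjusted p = 0.249 by limma). The implied length of Neb in EIIa-ctl replicate 1 was 6.76 kb against 22.0 to 22.7 kb in all other hearts, so the FPKM of Neb in that heart cannot be set beside the others.

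**Figure D5:**
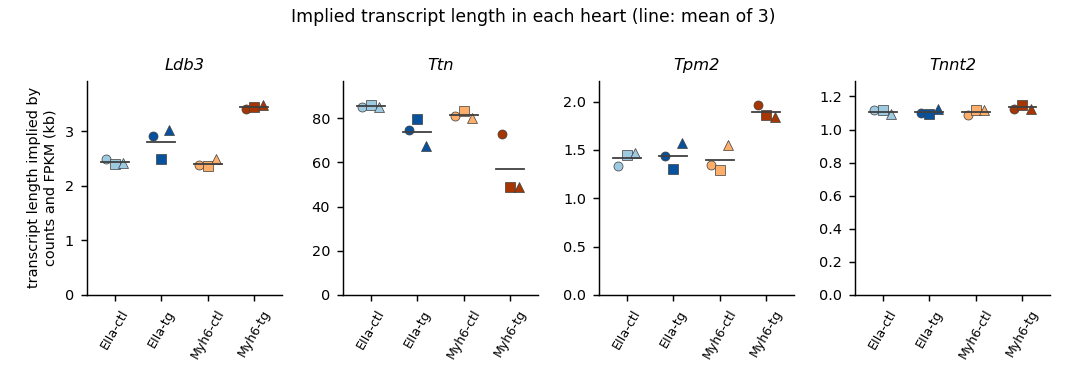
Transcript length in kb implied by counts and FPKM (y axis, from 0) of Ldb3, Ttn, Tpm2 and, for comparison, Tnnt2 in each of the 12 hearts by group (x axis); lines are means of 3 hearts. The 3 Myh6-tg hearts lie together at 3.40 to 3.49 kb for Ldb3, while for Ttn replicates 2 and 3 lie at 48.8 and 48.9 kb and replicate 1 at 73.0 kb.

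Other genes of the sarcomere that are not members were counted in the same way. Of 36 tested in the EIIa model 11 were called higher and 7 lower, and of 37 tested in the Myh6 model 8 higher and 3 lower, with medians of 0.15 and 0.33 log2 units. Of all genes 17% were called in the EIIa model and 18.3% in the Myh6 model. Fhl1, a LIM protein at the titin spring, had 94.9, 142 and 108 normalised CPM in EIIa-ctl and 543, 298 and 749 in EIIa-tg hearts (adjusted p = 0.0147). Pdlim7, another PDZ and LIM protein, had 30.8, 58.8 and 29.1 in Myh6-ctl and 224, 178 and 199 in Myh6-tg hearts (adjusted p = 0.00461). Xirp2, which joins filaments at the intercalated disc, rose in EIIa-tg hearts (log2 1.55, adjusted p = 0.0166), and its relative Xirp1 in Myh6-tg hearts (log2 1.61, adjusted p = 0.00487). Myl2, the regulatory light chain of the ventricle, fell in Myh6-tg hearts (log2 -2.07, adjusted p = 0.0112). The heavy chain Myh6 fell there too (log2 -2.60, adjusted p = 0.0208), and was not called in EIIa-tg hearts (log2 -1.34, adjusted p = 0.0773). Myh7 rose in EIIa-tg hearts (log2 1.87, adjusted p = 0.0423), to 3452, 666 and 1203 normalised CPM against 433 to 522 in EIIa-ctl hearts. It was not called in Myh6-tg hearts (log2 0.60, adjusted p = 0.693), with 3928, 420 and 365 against 430 to 1461 in Myh6-ctl hearts.

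Costameres tie the Z-disc to the membrane. Of 29 costamere genes 1 was called higher and 5 lower in EIIa-tg hearts, and 3 higher and 1 lower in Myh6-tg hearts. Over all genes 8.65% were called higher and 8.3% lower in EIIa-tg hearts, and 8.96% and 9.38% in Myh6-tg hearts. Ilk, integrin-linked kinase, had 60.4, 68.5 and 59.8 normalised CPM in Myh6-ctl and 207, 247 and 236 in Myh6-tg hearts (log2 1.87, adjusted p = 0.00201), and Itga7, the laminin receptor of muscle, was higher in both models (log2 0.65, adjusted p = 0.0233, and log2 1.06, adjusted p = 0.0263). Ank2 was lower in both models (log2 -0.98, adjusted p = 0.0227, and log2 -1.32, adjusted p = 0.0144). Dtna (log2 -0.53, adjusted p = 0.0233) and Tln2 (log2 -0.59, adjusted p = 0.0242) were also called lower in EIIa-tg hearts. Of 22 transcription factors of muscle genes 1 was called higher and 3 lower in EIIa-tg hearts, and 0 higher and 2 lower in Myh6-tg hearts. The shares of all genes are those given beside the costamere genes. Hopx, a cofactor that restrains serum response factor, fell in both models (log2 -0.96, adjusted p = 0.0214, and log2 -1.74, adjusted p = 0.00785). Tead1, which binds MCAT words, fell in EIIa-tg hearts (log2 -0.62, adjusted p = 0.0185) and Mef2c, which binds MEF2 sites, in Myh6-tg hearts (log2 -0.70, adjusted p = 0.0462). Tead1 did not fall in Myh6-tg hearts, with 164, 113 and 114 normalised CPM against 102 to 140 in Myh6-ctl hearts. In EIIa-tg hearts Myocd also fell (log2 -0.79, adjusted p = 0.0420), and the factor called higher was Hand2 (log2 1.02, adjusted p = 0.0135).

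Markers of cell types moved beside these results. The summed level of 15 ventricular heart muscle markers was 58720 to 69002 normalised CPM in EIIa-ctl, 25144 to 49713 in EIIa-tg, 43154 to 59178 in Myh6-ctl and 10055 to 27507 in Myh6-tg hearts. Of these 15 markers 0 were called higher in either model, 3 were called lower in EIIa-tg and 8 in Myh6-tg hearts. The sum of 10 atrial markers was 609 to 903, 1184 to 1549, 669 to 2450 and 5183 to 7738 in that order, and Nppa, which stressed ventricle also makes, gave 4171 to 6518 of it in Myh6-tg hearts. Myl7, Sln and Bmp10, which define atrial muscle, were under 3 counts in every EIIa-tg heart. The controls were also low: Bmp10 was under 3 counts in every EIIa-ctl and Myh6-ctl heart. Myl7 had 0, 0 and 0.190 normalised CPM in the EIIa-ctl hearts. In Myh6-tg hearts Myl7 had 0.171, 1.45 and 4.26 normalised CPM against 0 to 0.228 in Myh6-ctl hearts (adjusted p = 0.0776). Of 7 atrial markers tested in the EIIa model 3 were called higher, Pam (log2 0.45, adjusted p = 0.0304), Nppa (log2 1.46, adjusted p = 0.0326) and Dkk3 (log2 1.58, adjusted p = 0.0405), and of 8 tested in the Myh6 model also 3, Dkk3 (log2 3.24, adjusted p = 0.00554), Myl4 (log2 3.11, adjusted p = 0.0131) and Tbx18 (log2 1.06, adjusted p = 0.0196). The sum of 19 skeletal muscle genes was 276 to 330, 102 to 219, 251 to 582 and 326 to 913 normalised CPM, and the fast myosins Myh1, Myh2 and Myh4 had at most 11 counts in any heart. Tnnt3, fast skeletal troponin T, had 5 to 8 counts in EIIa-ctl, 66 to 204 in EIIa-tg, 11 to 58 in Myh6-ctl and 268 to 2280 in Myh6-tg hearts. Of 9 skeletal muscle genes tested in the EIIa model 2 were called higher, Tnnt3 and Mybpc2, and 3 lower. Casq1 (log2 -0.61, adjusted p = 0.0307) and Acta1 (log2 -1.07, adjusted p = 0.0433) were among the lower ones. Of 10 tested in the Myh6 model Tnnt3 was called higher (log2 4.52, adjusted p = 0.0220) and Cacna1s lower (log2 -4.78, adjusted p = 0.0153). Fibroblast markers summed to 1833 to 2633, 3127 to 4493, 2315 to 3270 and 4345 to 9322, and macrophage markers to 510 to 784, 1081 to 1427, 976 to 1597 and 1156 to 2575 normalised CPM. In EIIa-tg hearts 2 of 10 fibroblast and all 10 macrophage markers were called higher, and in Myh6-tg hearts 5 and 0. Smooth muscle markers other than Des summed to 1239 to 1461, 981 to 1345, 1103 to 1348 and 976 to 1551, and endothelial markers to 1277 to 1460, 1068 to 1159, 897 to 1709 and 883 to 1050. Of 10 smooth muscle markers, Des among them, 2 were called higher and 1 lower in EIIa-tg hearts and 2 higher and 3 lower in Myh6-tg hearts. The other marker called higher was Cnn1, calponin 1, with 2.35, 2.71 and 2.80 normalised CPM in EIIa-ctl and 25.2, 15.8 and 70.0 in EIIa-tg hearts (log2 3.81, adjusted p = 0.0147). It had 5.47 to 25.2 in Myh6-ctl and 19.3, 598 and 505 in Myh6-tg hearts (log2 4.82, adjusted p = 0.0299), while Smtn, smoothelin, was lower in both models (log2 -0.54, adjusted p = 0.0497, and log2 -1.20, adjusted p = 0.00561). In EIIa-tg hearts 3 of 10 endothelial markers were called lower. Beside these counts of markers stand the shares of all genes. They were 8.65% called higher and 8.3% lower in EIIa-tg hearts, and 8.96% and 9.38% in Myh6-tg hearts. The part of these cell types in the results for the sarcomere genes was not tested.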

How the data were processed

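RNA from 12 mouse hearts, 3 for each of 4 groups, was sequenced from NEBNext Ultra libraries. The authors deposited raw read counts per gene, and beside them FPKM, which divides by transcript length and library size. Per the labels, reads were processed with HISAT2 2.0.4 and StringTie 2.2.1, and the notes name both GRCm39 and mm10. Whether strand was used in counting is not given in the sources used here. The tables held 0 columns of other samples, and NOTCH2NLC is not analysed here.

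Groups were taken from the titles. Counts were normalised by TMM and tested in edgeR 4.0.16 (R 4.3.3) by the quasi-likelihood test after its filter on low counts, with Benjamini-Hochberg adjustment over all genes tested in a comparison. Each model was fitted on its own 6 hearts, and the difference between models on all 12. A gene was called at an adjusted p under 0.05. Standard errors belong to the log2 fold change. The titles number the hearts of a group as biological replicates. Ratios of pairs were taken on counts plus 0.5 and tested by exact permutation over hearts. The length behind FPKM was counts divided by FPKM, scaled on 549 genes and tested with limma 3.58.1 for genes with a mean of at least 500 counts. Scripts were tested on simulated data.

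The 38 members, the other gene lists and the pairs were chosen with earlier results of these data known. By the rule for named genes, every member was accounted for, values of each heart were given for members called in a model, with at most about 20 taken by lowest adjusted p, and other members by range. Each other list gave at most 4 called genes with the lowest adjusted p in a comparison. Myh6, Myh7 and Tnnt3, and values of single hearts for other members, were added after their values had been seen. Gene positions come from GENCODE M21 (GRCm38) and promoter windows from RefSeq (GRCm38.p6).

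Same-numbered hearts of the Myh6 model deviated together (correlations of deviations 0.285, 0.184 and 0.173 over genes), so the number was also used as a block there. Counting error alone is small at these depths for members above a few CPM, and the spread between hearts sets the precision. Alternatives were DESeq2 1.42.0, other size factors and filters, FPKM with limma, removal of mitochondrial genes and leaving out each heart. The hearts of replicates 2 and 3 alone, and the permutation of pairs within replicate numbers, were alternatives chosen after seeing the data.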

Additional observations from a re-analysis of the deposited data

Results flagged for a closer look

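For 2 members the change differed between the models by the interaction test. The change of Myh7b in Myh6-tg hearts was lower than in EIIa-tg hearts by a log2 difference of -3.65 (adjusted p = 0.00311, edgeR's quasi-likelihood test), and all 12 fits that leave out 1 heart kept the call. The change of Tmod4 differed by -2.40 (adjusted p = 0.0204), which did not pass the threshold without EIIa-ctl replicate 2, EIIa-ctl replicate 3, EIIa-tg replicate 1 or EIIa-tg replicate 2 (adjusted p = 0.0566, 0.0560, 0.0578 and 0.0531). Age, Cre line and injection differ with the model and cannot be told apart.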

How the results depend on the processing

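The count of members called in EIIa-tg hearts, 13 against 17% of all genes, was 21 with DESeq2 (8 higher, 13 lower), against 18.1%. It was 3 with all 12 hearts in one fit, against 1.43% of all genes. With replicate 2 and 3 hearts alone, an alternative chosen after seeing the data, it was 0, against 0% of all genes. Same-numbered EIIa hearts did not deviate together (correlations 0.0602, -0.0704 and -0.0500). With the replicate number as a block the count there was 0, and 1 of 14908 genes was called. Without a filter on low counts it was split into 7 up and 10 down, against 13.3% of all genes. The stricter rule (adjusted p under 0.01, log2 fold change of at least 1) gave counts of 0 in EIIa-tg hearts (6 with DESeq2), 6 in Myh6-tg hearts and 1 for the difference between models. Over all genes it gave 0 (836 with DESeq2), 608 and 99. In Myh6-tg hearts, where 10 were called against 18.3% of all genes, limma on log2(FPKM + 1) called 16 (9 higher, 7 lower), against 32.7%. On log2(FPKM + 0.1) it called 17 (10 higher, 7 lower), against 32.4% of all genes. The block called 12 members, against 20.9% of all genes, and replicate 2 and 3 hearts alone 21, against 21.1%. For the difference between models, with 2 called, DESeq2 called 6, limma 6 and 4, and replicate 2 and 3 hearts alone 7. The shares of all genes were 3.92%, and in these alternatives 6.71%, 5.76%, 4.87% and 3.26%. Between the control groups DESeq2 called 5 members, and 1 was called without the filter and 1 with the replicate block. The shares of all genes called there were 2.22%, 0.338% and 0.18%. The block changed no other call of a member in the Myh6 model than those of Myl1 and Mylk3. The median log2 fold change of members was -0.061 and -0.062 in the FPKM fits of the EIIa model, -0.57 in Myh6-tg hearts and -0.68 for the difference with replicate 2 and 3 hearts alone. The FPKM scale moved the median of all genes from 0.02 to 0.16 and 0.20 in the EIIa model and from 0.03 to 0.34 and 0.43 in the Myh6 model.

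When hearts were left out in turn, the counts ran from 0 to 22 in the EIIa model, 7 to 21 in the Myh6 model, 1 to 13 for the difference and 0 to 0 between controls. The shares of all genes called ran from 0 to 26.6%, 5.01 to 26.7%, 1.78 to 10.6% and 0.0195 to 0.639%. The medians ran from -0.30 to -0.20, -0.60 to 0.23, -0.75 to 0.27 and -0.20 to -0.07. The sign of Myom1 in Myh6-tg hearts turned with the block (-0.081), with replicate 2 and 3 hearts alone (-0.62) and on leaving out hearts (-0.75 to 0.60). That of Tmod1 turned likewise (-0.0037, -0.19 and -0.29 to 0.20), and Tpm4 was at 0.21 in both FPKM fits. For the difference, Tnni1 was at -1.49 with replicate 2 and 3 hearts alone and between -1.05 and 0.97 with a heart left out, and Ldb3 between -0.97 and 0.10. Among pairs Tpm2/Tpm1 was -0.22 on FPKM. With the replicate number as a block in the Myh6 model Myot/Mypn, at the same 0.63, passed the threshold, and no other pair changed its call. With a heart left out, Tpm2/Tpm1 ran from -0.10 to 0.19, Tpm3/Tpm1 from -0.036 to 0.22, Tnnt1/Tnnt2 from -0.32 to 0.080, Myom3/Myom1 from -0.063 to 0.67, Tpm4/Tpm1 from -0.63 to -0.35, Myoz1/Myoz2 from 2.58 to 3.56, Tmod4/Tmod1 from -1.99 to -1.63 and Myot/Mypn from 0.46 to 0.76. The cause of these shifts was not tested. With 3 hearts a group, and 1 of them male, depth was not the limit for most members, while Tnni1 and Myoz1 rest on few reads.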
